A study of Mus musculus with 16 samples.

Results

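The 8 mammary gland arrays of mice at 20 weeks of age were set apart, across housing, by the transcripts of 3 mast cell proteases: Mcpt4, a chymase, Cpa3, a carboxypeptidase, and Tpsb2, a tryptase. Arrays whose mean over these 3 genes was 9.2 or above on the log2 scale are called mast-high here, and those under 9.2 mast-low. The mast-high arrays were grouped replicate 3 and isolated replicates 2, 3 and 4. The mast-low arrays were grouped replicates 1, 2 and 4 and isolated replicate 1. These are 8 of the 16 arrays of the series, and each set held 4. The mean of the 3 genes was 10.38, 10.02, 10.15 and 9.39 on the mast-high arrays and 8.89, 8.31, 8.32 and 8.83 on the mast-low arrays, with the arrays in the order just given, which is kept for all values below. Mcpt4 lay at 10.47, 10, 10.08 and 9.12 and 8.38, 7.96, 7.69 and 8.56. Cpa3 lay at 10.84, 10.45, 10.48 and 9.63 and 9.13, 8.28, 8.82 and 9.16. Tpsb2 lay at 9.83, 9.62, 9.89 and 9.43 and 9.14, 8.68, 8.45 and 8.77. These levels made the split and are a description of it. A second Tpsb2 probe set, which was not used, lay at 7.28 to 7.45 on all 8 arrays, with means of 7.36 and 7.34. Just inside the threshold lay isolated replicate 4 at 9.39 and just outside it grouped replicate 1 at 8.89. Each of the 3 genes alone, with its 4 highest arrays taken, put all 8 arrays in the same sets.

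The mice were FVB/N females homozygous for the SV40 large T antigen, a viral oncogene that disables p53 and Rb, driven by the C3(1) fragment of the rat prostatic steroid binding protein promoter. Every mouse carried the transgene, so no array shows a gland without it. Mice were kept alone (isolated) or with other females (grouped) from weaning, and the thoracic gland was taken at 15 or 20 weeks in estrus, in the dark phase, with 4 arrays for each housing and age. The labels do not say that each array came from a separate mouse. Total RNA of the whole gland was measured, so fewer cells of a type and less RNA per cell cannot be told apart.

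Mast cells are resident cells of connective tissue, where they lie near vessels and nerves and store proteases and histamine in granules. The same layers around vessels and ducts hold tissue-resident macrophages, which carry Lyve1, Cd163 and Mrc1, and adventitial fibroblasts, which carry Pi16 and Dpp4 and lay down collagen, proteoglycans and elastic fibre proteins. Fat, epithelium and muscle make up most of the rest of a mammary gland.

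The starting stretch of 3 genes whose transcripts lay higher on the mast-high arrays is shown to place them in the genome, 2 of macrophages and 1 of fibroblasts. Each covers 300 bases around the start of the gene, from RefSeq on GRCm38.p6. Capitals mark GAGGAA, or TTCCTC where it lies on the other strand, the core that the myeloid factor PU.1 and other ETS factors bind.
Cd163, chr6:124304401-124304700, plus strand: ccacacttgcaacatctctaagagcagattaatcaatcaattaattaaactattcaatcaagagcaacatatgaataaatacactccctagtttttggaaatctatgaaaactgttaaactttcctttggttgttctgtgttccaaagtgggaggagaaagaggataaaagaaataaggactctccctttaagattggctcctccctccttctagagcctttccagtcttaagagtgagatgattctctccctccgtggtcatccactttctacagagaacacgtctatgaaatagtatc
Mrc1, chr2:14229164-14229463, plus strand: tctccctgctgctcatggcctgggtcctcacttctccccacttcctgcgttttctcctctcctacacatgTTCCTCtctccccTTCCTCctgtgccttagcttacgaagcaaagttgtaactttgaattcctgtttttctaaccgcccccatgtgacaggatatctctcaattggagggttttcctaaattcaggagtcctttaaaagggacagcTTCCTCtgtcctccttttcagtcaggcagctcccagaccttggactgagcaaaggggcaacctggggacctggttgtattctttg
Pi16, chr17:29318632-29318931, plus strand: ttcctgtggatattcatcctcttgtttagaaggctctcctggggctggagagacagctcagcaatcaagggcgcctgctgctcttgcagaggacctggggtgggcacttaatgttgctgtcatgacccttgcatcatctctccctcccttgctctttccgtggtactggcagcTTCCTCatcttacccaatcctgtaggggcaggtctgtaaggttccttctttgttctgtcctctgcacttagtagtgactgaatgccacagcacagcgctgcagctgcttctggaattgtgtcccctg
The Mrc1 stretch held the core 3 times, that of Pi16 1 time and that of Cd163 0 times. Of 62 genes with a listed start among the 81 described below, 26 (41.9%) held it on either strand, against 3907 (27%) of the 14452 measured genes with a listed start of the same length. Among 20 macrophage markers with a listed start 13 (65%) held it. Shares above 27% were not limited to genes that lay higher, but the 2 that follow rest on few genes and were not tested against 27%. The core was in 11 of 30 cell cycle and E2F target genes (36.7%). It was also in 4 of the 12 genes with a listed start among the 15 largest decreases (33.3%), near the share of all genes. TATAAA, on either strand, was in 16 of the 62 (25.8%) and in 9.87% of all. These are counts of letters and say nothing of which factor acts there.

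The split was made from levels measured on these same arrays. Differences between mast-high and mast-low arrays are therefore given as a description, without a p-value, and the 3 proteases are left out of all counts. Log2 values carry the arrays' own scale, on which a difference of 1 is a 2-fold difference. Array medians lay between 8.31 and 8.34 and lower quartiles between 6.98 and 7.04, and a level near or below the quartile was not shown to exceed background. RNA quality was read from control probe sets at either end of 2 transcripts, as the level at the 3' end less that at the 5' end. For actin this was 0.14 to 0.24 on mast-high and 0.19 to 0.33 on mast-low arrays. For Gapdh the largest values were 0.00087 and 0.02 and the lowest -0.06 and -0.04. Their part in the differences was not tested.

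One mast-high array stood apart. Isolated replicate 3 had the hair follicle protein Tchh at 10.59 where the other 7 arrays had 6.25 to 7.16, the hair keratin Krt25 at 8.73 against 5.16 to 5.46, and Glycam1, made by milk-secreting cells and lymph node vessels, at 11.54 against 7.38 to 7.65. Cd3g, a chain of the T cell receptor complex, was at 8.45 there and at 6.52 to 6.85 elsewhere. The counts over all genes, and those of the lists that differed, are also given without this array, a check chosen after the data were seen.

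Of 18190 genes, 81 lay higher on every mast-high array than on every mast-low array with a mean difference of at least 1 (0.445% of genes), and 0 lay lower by as much (0%). Without isolated replicate 3, 75 genes did, among them 72 of the 81. At a difference of at least 0.5 the counts were 300 higher (1.65%) and 5 lower (0.0275%). With no limit on size, 883 genes (4.85%) lay higher on every mast-high array and 638 (3.51%) lower. Without isolated replicate 3 these counts were 287, 7, 1018 and 888, where fewer arrays have to lie apart. The median difference over all genes was -0.01. Among genes whose sets did not overlap, differences of at least 1 lay on the mast-high side alone, while genes with overlap had mean differences down to -1.85. No support for the split can be read from these counts, since its own contrast chose them. Without isolated replicate 3 the numbers of members higher on every mast-high array were the same as with it for macrophage (21 of 28), fibroblast (15 of 24), mast cell (9 of 23), complement (8 of 12) and chemokine genes (6 of 19), and 20 against 19 for proteoglycans and 12 against 11 for fibrillar collagens. The numbers lower throughout were the same for cell cycle (9 of 36) and cholesterol genes (6 of 17). Leaving out an array cannot lower such a count, so equal counts show little about the part of that array. For every list count below that uses all 8 arrays, the shares of all genes to set beside it are 4.85% higher and 3.51% lower on every mast-high array. For counts without isolated replicate 3 they are 1018 and 888 of 18190 genes.

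**Figure D1:**
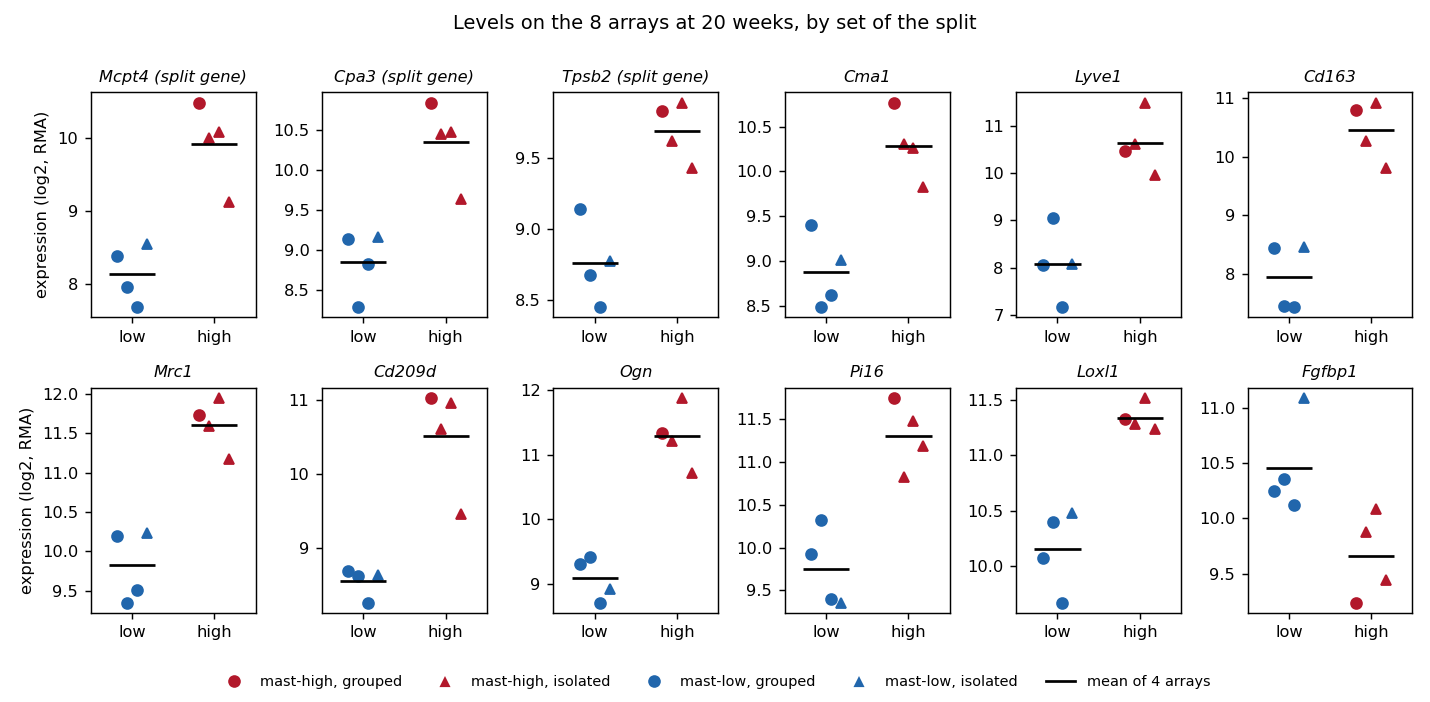
Log2 expression of 12 genes on each of the 8 arrays at 20 weeks, in the mast-low (blue) and mast-high (red) sets. Circles are grouped and triangles isolated mice, and bars are means of 4 arrays. The first 3 panels are the genes that made the split. The next 8 genes lie higher on every mast-high array, and Fgfbp1 lies lower.

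Other mast cell genes went with the proteases in part. The chymase Cma1 lay at 10.77, 10.3, 10.26 and 9.82 in the mast-high arrays and 9.4, 8.48, 8.62 and 9.01 in the mast-low arrays, a difference of 1.41 (2.65-fold). The tryptase Tpsab1, a near relative of Tpsb2 whose probe set could share its signal, lay at 8.63 to 9.33 in mast-high and 7.91 to 8.26 in mast-low arrays (difference 0.95). The granule proteoglycan gene Srgn (0.68) and the signalling chain Fcer1g (0.79), both also made by other blood cells, were higher on every mast-high array as well. Hdc, which makes histamine, differed by only 0.1, although its arrays did not overlap. The high-affinity IgE receptor chain Fcer1a lay at 6.46 to 6.91 in mast-high and 6.33 to 6.71 in mast-low arrays, near or below the lower quartile, with overlap. The IgE receptor chain Ms4a2 (0.21) and the transcription factor Gata2 (0.01) overlapped too. Kit, the stem cell factor receptor of mast cells that luminal progenitors also carry, lay the other way, at 11.27 to 11.96 in mast-high and 11.98 to 12.12 in mast-low arrays. Of 23 measured members of the mast cell list, 9 were higher on every mast-high array, 1 by at least 1, and Kit was lower, with a median of 0.1. Transcripts of Mcpt1 (-0.03), Mcpt2 (-0.07) and Mcpt8 (-0.03), proteases of mucosal mast cells and basophils, differed little. But Mcpt1 lay at 6.75 to 6.98 and Mcpt8 at 6.4 to 6.62, near or below the lower quartile, where a difference could be missed. Mrgprb1, counted among the 9, lay at 5.29 to 5.9, below the quartile.

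The 2 largest differences were those of macrophage genes. Lyve1, a hyaluronan receptor of resident macrophages and lymphatic vessels, lay at 10.48, 10.63, 11.5 and 9.96 in the mast-high arrays and 8.06, 9.05, 7.16 and 8.07 in the mast-low arrays. Its means were 10.64 ± 0.64 against 8.08 ± 0.77 (SD, n = 4 arrays each), a difference of 2.56 or 5.89-fold. The lowest mast-high array was isolated replicate 4 and the highest mast-low array grouped replicate 2, and the sets did not overlap. The lymphatic genes Flt4 (0.11) and Reln (-0.26) overlapped between the sets, and only Lyve1 and Pdpn of the 6 measured lymphatic markers did not.

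The haemoglobin scavenger receptor Cd163 lay at 10.81, 10.28, 10.93 and 9.8 in the mast-high arrays and 8.44, 7.46, 7.44 and 8.47 in the mast-low arrays. The means were 10.45 ± 0.52 against 7.95 ± 0.58, a difference of 2.5 (5.67-fold), and the sets did not overlap. The mannose receptor Mrc1 lay at 11.74, 11.6, 11.95 and 11.17 in the mast-high arrays and 10.2, 9.35, 9.5 and 10.24 in the mast-low arrays (difference 1.79, 3.46-fold). In both genes grouped replicates 2 and 4 were lowest and isolated replicate 4 was the lowest of the mast-high arrays, as for the mean of the proteases. The folate receptor Folr2 (1.44), the clotting factor subunit F13a1 (1.66), the lectin Clec10a (1.59), the platelet factor gene Pf4 (1.5), the ficolin Fcna (1.46) and the carbonyl reductase Cbr2 (1.76) were higher on every mast-high array. Pf4 and Fcna were named after their values were seen. Akr1c14 (1.77), Clec4a3 (1.75) and Calml4 (1.6) also had large differences, but their means in the higher set lay below the median level of all genes, as did that of Syt9 (-0.55) on the lower side.

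Pan-macrophage genes had smaller differences. Of 28 measured macrophage markers, 21 were higher on every mast-high array, 9 of them by at least 1, and 0 were lower on every one, with a median of 0.55. The following members were picked after their values were seen. The pan-macrophage receptor genes Csf1r and Adgre1 differed by 0.52 and 0.5, the lysosomal protein Cd68 by 1.05 and the complement chains C1qa, C1qb and C1qc by 0.89, 1.08 and 1.13. Retnla, made by macrophages under type 2 cytokines, differed by 1.08. Trem2 (0.27), Gpnmb (0.46) and Marco (0.15), lipid-handling and scavenger genes, differed less, and the last 2 overlapped. The list mean was 10.7 to 10.86 on the mast-high and 9.8 to 10.14 on the mast-low arrays.

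The Cd209 lectin family, a cluster of similar genes that resident macrophages and dendritic cells express, was examined after its members appeared among the largest differences. Of its 7 measured members, 5 were higher on every mast-high array by at least 1 and 7 had a positive difference. Cd209d lay at 11.03, 10.6, 10.96 and 9.45 in the mast-high arrays and 8.69, 8.62, 8.25 and 8.63 in the mast-low arrays, a difference of 1.96 (3.9-fold). The difference was 1.34 for Cd209b, 1.33 for Cd209g, 1.31 for Cd209f and 1.29 for Cd209a. Cd209e (0.85) and Cd209c (0.12) overlapped. Probe sets of these copies may share signal, so the 5 are not separate observations. Isolated replicate 4 lay nearest the mast-low arrays in all 5. In the Ms4a family, looked at in the same way, 3 of 17 measured members were higher by at least 1, namely Ms4a6b (1.26), Ms4a6d (1.24, with 1 of its 3 probe sets the other way) and Ms4a4d (1.17).

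Chemokines of resident macrophages and stroma were part of the pattern. Ccl6 lay at 12.76, 12.83, 13.37 and 12.49 in the mast-high arrays and 11.27, 10.99, 9.91 and 11.06 in the mast-low arrays (difference 2.05, 4.16-fold). The monocyte attractant Ccl8 lay at 13.62, 13.37, 13.63 and 12.53 in the mast-high arrays and 11.71, 10.99, 10.92 and 11.9 in the mast-low arrays (difference 1.91, 3.75-fold). Ccl9 differed by 1.61 and the eosinophil attractant Ccl11 by 1.21. Of 19 chemokines 6 were higher on every mast-high array (4.85% of all genes were), 4 by at least 1. The epithelial chemokine Ccl20 (-0.39) was the 1 that was lower, against 3.51% of all genes. The inflammatory chemokines Ccl3 (-0.13), Ccl4 (0.04), Cxcl9 (-0.22) and Cxcl10 (0.09) overlapped. These and Ccl20 were picked after their values were seen.

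**Figure D2:**
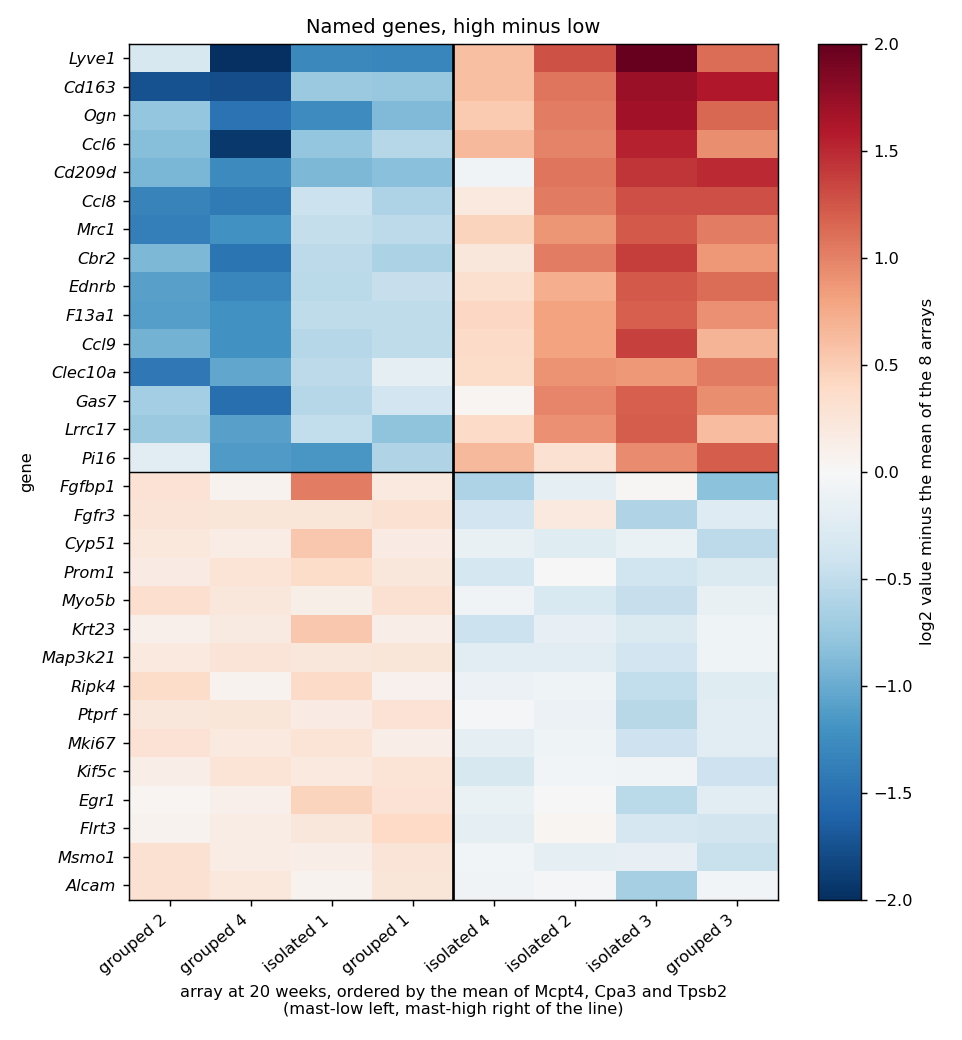
Log2 value of the 15 genes with the largest increases and the 15 with the largest decreases among genes whose sets did not overlap and whose mean in the higher set exceeded the median level of all genes (9.11), minus each gene's mean over the 8 arrays. Columns are arrays ordered by the mean of the 3 proteases, with mast-high arrays right of the line. The increases reach 2.56 and the decreases -0.79, and isolated replicate 4 is the lowest mast-high array for 14 of the 15 increases.

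Fibroblast and matrix genes lay higher as well. Ogn, which encodes osteoglycin, a small proteoglycan that binds collagen, lay at 11.34, 11.21, 11.87 and 10.71 in the mast-high arrays and 9.3, 9.41, 8.71 and 8.93 in the mast-low arrays. Its means were 11.28 ± 0.47 against 9.09 ± 0.33 (SD), a difference of 2.2 (4.58-fold), with no overlap. Pi16, a mark of adventitial fibroblasts, lay at 11.74, 10.83, 11.47 and 11.18 in the mast-high arrays and 9.93, 10.32, 9.4 and 9.36 in the mast-low arrays (difference 1.55, 2.93-fold). Dpp4, a peptidase of the same cells, lay at 8.69, 8.2, 8.88 and 7.76 in the mast-high arrays and 6.84, 7.01, 6.38 and 6.7 in the mast-low arrays (difference 1.65, 3.14-fold). Its mast-low levels lie near or below the arrays' lower quartile, so its fold depends on that level. Other genes with large differences were Ednrb, an endothelin receptor (1.7), and Lrrc17, a secreted leucine-rich repeat protein (1.57). The highest array for Pi16 was the grouped one, and for Ogn and Dpp4 isolated replicate 3.

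Of 24 fibroblast markers, 15 were higher on every mast-high array, 5 by at least 1, and 0 were lower on every one (median 0.69). Islr (1.2) and Clec3b (1.16), both secreted or surface proteins of fibroblasts, were among them. Of 37 proteoglycans and matrix glycoproteins, 19 were higher on every mast-high array, 9 by at least 1 (median 0.54). The elastic fibre protein Mfap5 lay at 11.18 to 11.83 in mast-high and 9.47 to 10.48 in mast-low arrays (difference 1.4), the tenascin Tnxb differed by 1.36 and Aspn, a relative of Dcn, by 1.33. Members picked after their values were seen show how uneven the list was: Dcn, Lum and Vcan differed by 1, 1 and 1.04, while the wound and tumour matrix genes Postn (0.22) and Tnc (-0.11) overlapped.

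Among collagen genes the differences were smaller. The crosslinking enzyme Loxl1 lay at 11.33, 11.28, 11.52 and 11.23 in the mast-high arrays and 10.07, 10.4, 9.67 and 10.48 in the mast-low arrays, a difference of 1.18 (2.27-fold). Col1a1, the main chain of type I collagen, lay at 12.17, 12.39, 12.07 and 12.46 in the mast-high arrays and 11.44, 11.18, 10.83 and 11.76 in the mast-low arrays (difference 0.97, 1.96-fold), and Col5a1 differed by 0.96. In Col1a1 isolated replicate 1 was the highest mast-low array and isolated replicate 3 the lowest mast-high one. Lox, another crosslinking enzyme, overlapped (0.82). Of 25 genes of fibrillar collagens and their processing, 11 were higher on every mast-high array, 1 by at least 1 (median 0.41). Of 17 other collagens, 5 were (median 0.26), led by Col14a1 (1.21), which binds collagen fibrils, and by the type VI chain Col6a3 (0.81). The collagen-degrading enzyme Mmp13 ran from 6.35 to 9.25 in mast-high and 7.47 to 10.94 in mast-low arrays and overlapped, although its mean difference was -1.46. Among 28 matrix proteases and inhibitors, Mmp2 (0.87), Mmp3 (0.86) and Mmp19 (0.73) were among 8 that were higher on every mast-high array, and 2 were lower.

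Complement and antigen presentation followed the same split. Of 12 complement genes 8 were higher on every mast-high array, 3 by at least 1 (median 0.6). The C1 protease gene C1s1 lay at 10.69 to 11.48 in mast-high and 9.17 to 10.24 in mast-low arrays (difference 1.23), and properdin, encoded by Cfp, and C1ra differed by 1.12 and 1.03. Of the 2 probe sets of Cfp, 1 lay the other way. Of 16 genes of MHC class II and dendritic cells 9 were higher (median 0.3), with H2-Aa at 0.61 and Cd74 at 0.56. The growth factor binding protein Igfbp6 differed by 1.13 and Igf1, a growth factor of stroma and fat, by 0.64, while the median of the 30 growth factor and receptor genes was 0.08. In the TGF-beta list 2 of 18 were higher and 2 lower throughout, against 4.85% and 3.51% of all genes. The receptor Tgfbr2 differed by 0.75 (2 of its 3 probe sets in that direction) and the list median was 0.03. Il33, an alarmin that mast cells respond to, differed by 1.29 with overlap, and the type 2 immunity list had a median of 0.04.

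**Figure D3:**
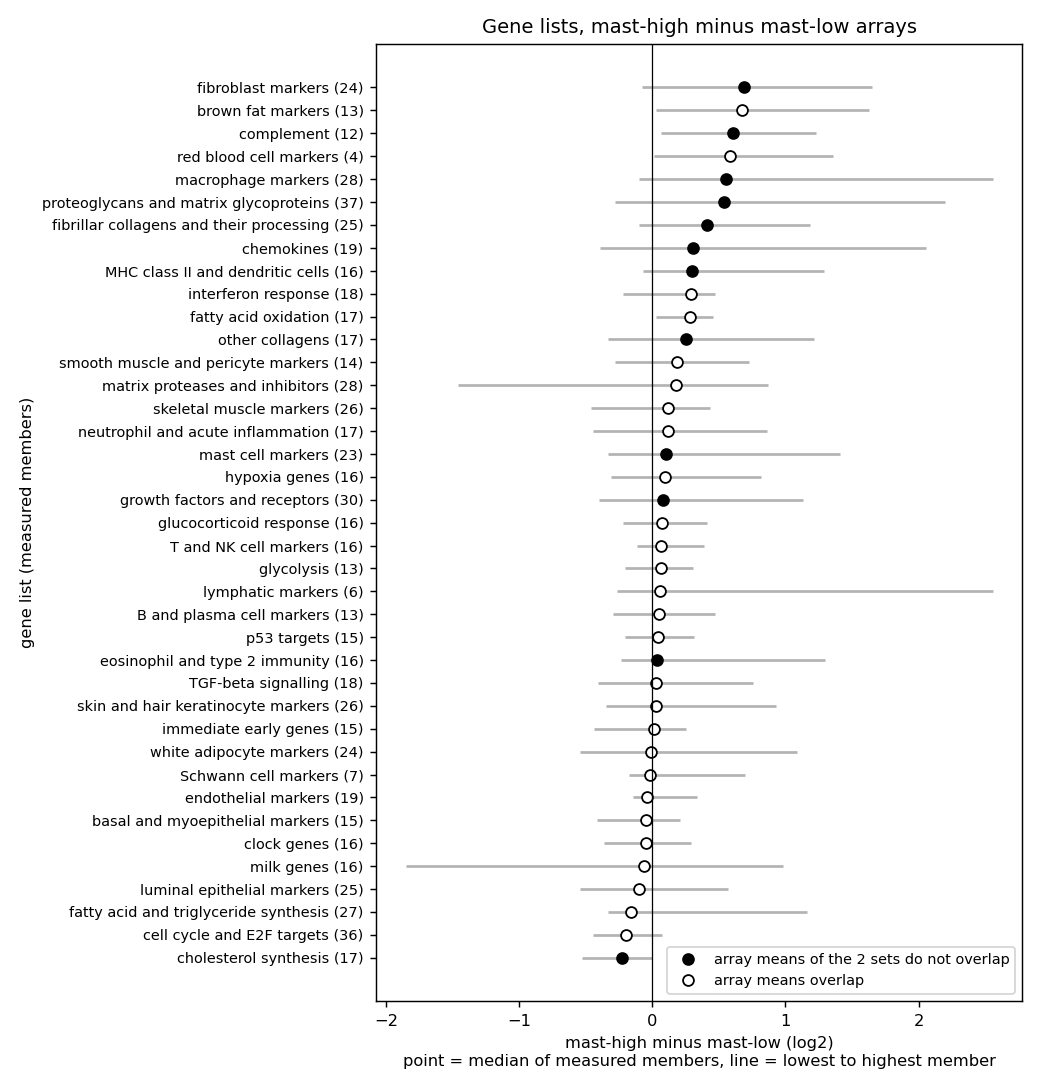
Difference between mast-high and mast-low arrays (log2) for the gene lists, with the number of measured members in parentheses. Points are the median member and lines run from the lowest to the highest member. Filled points mark lists whose array means did not overlap between the sets, such as fibroblast markers at 0.69 and macrophage markers at 0.55. Lists with small medians are filled too, such as growth factors and receptors at 0.08 and type 2 immunity at 0.04.

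Macrophage, fibroblast, collagen and proteoglycan lists thus separated the sets while matrix protease, vessel, smooth muscle and fat lists overlapped. The arrays are therefore named here by their proteases rather than as rich in stroma. The overlap is that of sets unequal in housing. With housing as a term the medians were 0.21 for endothelial, 0.41 for smooth muscle and 0.37 for white adipocyte markers. They were 0.52 for macrophage and 0.78 for fibroblast markers and 0.53 for proteoglycans, but 0.26 for fibrillar and 0.1 for other collagens. With housing as a term the collagen medians thus lay below those of smooth muscle and white adipocyte markers. Each housing has 1 array on its smaller side. The collagen lists also separated narrowly, with lowest mast-high means of 10.33 and 10.51 against highest mast-low means of 10.31 and 10.45. Of 19 endothelial markers, 0 were higher and 0 lower on every mast-high array (median -0.04), with the vessel adhesion gene Pecam1 at 8.93 to 9.86 in mast-high and 8.33 to 10.13 in mast-low arrays. Of 14 smooth muscle and pericyte genes only the potassium channel Kcnj8 was higher throughout (0.73). Of 16 T and NK cell and 13 B and plasma cell markers, 0 were higher or lower on every mast-high array, with medians of 0.07 and 0.05. Of 17 neutrophil and acute inflammation genes, 1 was higher throughout, S100a9 (0.81), or 2 without isolated replicate 3. The highest array for S100a9 was isolated replicate 3 at 9.75. The counts of 1 in the smooth muscle and neutrophil lists lie near the 4.85% of all genes higher throughout. Interferon response genes had a median of 0.29, with 4 of 18 higher throughout, or 6 without isolated replicate 3, such as Irf7 (0.47).

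**Figure D4:**
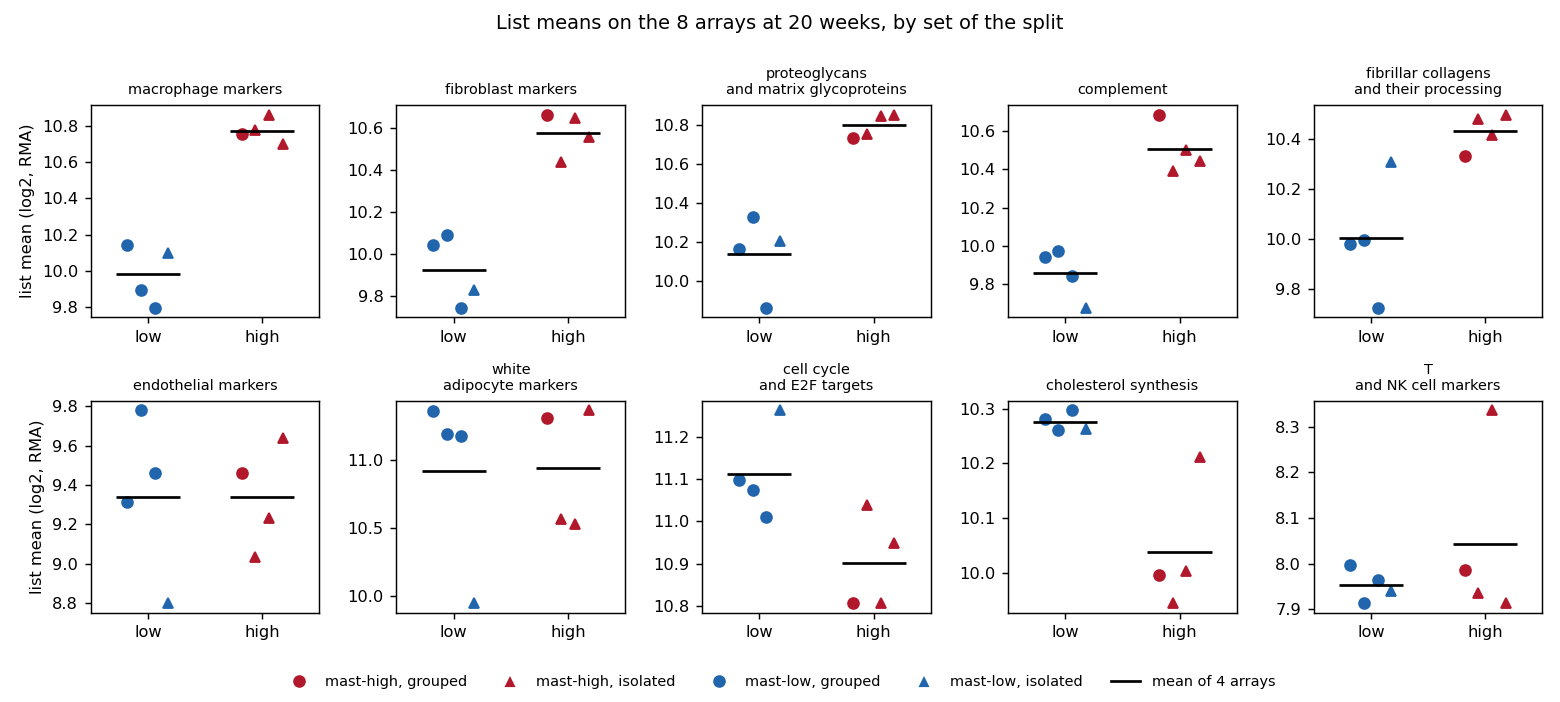
Mean log2 level of 10 gene lists on each array at 20 weeks, in the mast-low (blue) and mast-high (red) sets, with circles for grouped and triangles for isolated mice and bars for means of 4 arrays. Macrophage markers lie at 10.7 to 10.86 on mast-high and 9.8 to 10.14 on mast-low arrays, while white adipocyte and endothelial markers overlap.

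Fat genes overlapped between the sets. The white adipocyte list had a median of -0.01, with means of 10.52 to 11.37 on the mast-high and 9.94 to 11.36 on the mast-low arrays, and 0 of its 24 members were apart in either direction. The lowest array was isolated replicate 1, which is mast-low, followed by isolated replicates 3 and 2, which are mast-high. Isolated minus grouped, the median of this list at 20 weeks was -0.69. With housing as a term its median difference between the sets was 0.37, and that of fatty acid and triglyceride synthesis genes was 0.18. In the same fit the medians were 1.26 for brown fat and 0.58 for fatty acid oxidation genes. The brown fat uncoupling protein Ucp1 lay at 13.01, 12.24, 12.81 and 13.65 in the mast-high arrays and 11.73, 12.32, 12.4 and 8.74 in the mast-low arrays. Its difference of 1.63 came with overlap, isolated replicate 1 being far below the other 7 arrays, and the brown fat list median was 0.68 with 0 of 13 apart. Fatty acid oxidation genes had a median of 0.28 with 0 of 17 apart, led by Acadl (0.45). Fatty acid and triglyceride synthesis genes had a median of -0.16, or 0.02 without isolated replicate 3, with Fads1 lower throughout (-0.31).

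Some epithelial, proliferation and cholesterol genes were lower on every mast-high array, by small amounts. Fgfbp1, an epithelial protein that releases stored fibroblast growth factors, lay at 9.24, 9.88, 10.08 and 9.44 in the mast-high arrays and 10.25, 10.35, 10.12 and 11.09 in the mast-low arrays (difference -0.79). Isolated replicate 1 was its highest array, and with that array left out 2 genes of all tested were lower by at least 1. The receptor Fgfr3 lay at 10.92 to 11.71 in mast-high and 11.77 to 11.82 in mast-low arrays (difference -0.53) and the luminal progenitor surface protein Prom1 at 10.37 to 10.77 in mast-high and 10.93 to 11.14 in mast-low arrays (-0.52). The receptor phosphatase Ptprf (-0.45), the keratin Krt23 (-0.48), the kinase Ripk4 (-0.46), the motor protein Myo5b (-0.5), the adhesion proteins Alcam (-0.42) and Flrt3 (-0.43), the kinase Map3k21 (-0.46) and the neuronal kinesin Kif5c (-0.44) were lower on every mast-high array. The luminal list as a whole had a median of -0.1 with 3 of 25 lower throughout, against 3.51% of all genes. The basal list had a median of -0.04 with 0 of 15, and Krt17 overlapped (-0.41).

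The proliferation marker Mki67 lay at 12.08, 12.19, 11.87 and 12.1 in the mast-high arrays and 12.42, 12.57, 12.48 and 12.55 in the mast-low arrays, a difference of -0.44. The 36 cell cycle and E2F target genes had a median of -0.2, and their list means overlapped. These were 10.81 to 11.04 on mast-high and 11.01 to 11.26 on mast-low arrays. Of the 36, 9 were lower on every mast-high array, none by 0.5 or more, against 3.51% of all genes. A negative difference was found for 35 and a positive one for 1, where 46% of all genes had a positive one. The spindle motor Kif11 (-0.36) and the mitotic activator Cdc20 (-0.37) were examples. Of 17 cholesterol synthesis genes 6 were lower throughout, against 3.51% of all genes (list median -0.23). The demethylase Cyp51 lay at 9.05 to 9.45 in mast-high and 9.72 to 10.11 in mast-low arrays (difference -0.53), and Msmo1 and Idi1 differed by -0.42 and -0.41. The immediate early factor Egr1 was lower throughout (-0.43), while the immediate early list had a median of 0.01.

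The remaining lists showed no member higher or lower by at least 1 with the sets apart. Skeletal muscle had a median of 0.12, milk genes -0.06 and skin and hair genes 0.02. Red blood cells had 0.58 over 4 genes, or 0.3 without isolated replicate 3. Their list means overlapped, at 8.03 to 9.2 on mast-high and 7.33 to 8.52 on mast-low arrays. Medians were 0.1 for hypoxia, 0.08 for glucocorticoid response, 0.07 for glycolysis, 0.05 for p53 target, -0.02 for Schwann cell and -0.05 for clock genes. The caseins Csn2 (-1.85) and Csn1s2a (-1.48, with 1 of 5 probe sets the other way) differed in mean but overlapped, since they lay low on all 4 isolated arrays and high on all 4 grouped ones.

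The split crossed housing only in part. Of the mast-high arrays 3 were isolated and 1 grouped, and of the mast-low arrays 1 was isolated and 3 grouped. Since the 81 genes were chosen for lying apart on all 8 arrays, their direction within each housing is fixed by that choice and shows nothing further. Their median difference was 1.35 between grouped replicate 3 and the other grouped arrays and 1.26 between isolated replicates 2 to 4 and isolated replicate 1, each with 1 array on its smaller side. With housing as a term in the fit the differences of the 81 genes ran from 0.73 to 2.51, and 75 stayed at 1 or above. The labelled comparison on the same arrays, isolated minus grouped with limma, called 0 of the 81 genes after Benjamini-Hochberg adjustment, and 2 of 18193 genes in all (0.011%). All 81 had a positive difference there, against 46.7% of all genes, but the arrays are those that made the split. The count of 2 rests on single arrays: it was 136 when isolated replicate 4 was dropped, 0 when grouped replicate 2 or 4 was, and 1 when isolated replicate 2, isolated replicate 3 or grouped replicate 3 was. Lyve1 differed by 1.35 (limma adjusted p = 0.656) and Ogn by 0.99 (limma adjusted p = 0.686), both higher in isolated mice.

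The 8 arrays at 15 weeks took no part in the split and serve as separate samples. There the 3 proteases were lower in isolated than in grouped mice, with log2 differences of -0.75 for Mcpt4 (SE 0.08), -0.71 for Cpa3 (SE 0.07) and -0.49 for Tpsb2 (SE 0.05), each with limma adjusted p = 0.0106. Without isolated replicate 1 or isolated replicate 2 no gene, and so none of the 3, passed the adjustment, and the count of all genes passing was 1 without grouped replicate 2, 2 without isolated replicate 3, 16 without grouped replicate 1 and 31 without grouped replicate 3. For the 81 genes that were higher on mast-high arrays, isolated minus grouped at 20 weeks was positive in all 81 (median 0.65). That sign follows largely from the choice of the genes, since the mast-high set held 3 isolated arrays and 1 grouped one. It is no separate observation on housing, and no change with age can be read from it. At 15 weeks isolated minus grouped was negative in 77 of the 81, as for the proteases, against 9815 of all 18190 genes (54%). Their median difference was -0.32, against -0.01 for all genes. In 32 of the 81 the highest isolated array was below the lowest grouped one, against 3.36% of all genes, and in 0 the reverse (2.31% of all genes). None of the 81 passed the limma test after adjustment, while 8 of all 18193 genes did (0.044%). An unadjusted p under 0.05 was found for 54 of the 81, against 1761 of 18190 genes (9.68%). The 4 exceptions in sign were Ctxn3 (0.56), Cilp (0.2), Prg4 (0.08) and Apod (0.03), named after their values were seen. Leaving out each array at 15 weeks in turn left 74 to 77 negative, with medians from -0.37 to -0.22, the latter without isolated replicate 3, the array with the lowest protease levels.

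Values of single genes follow. Cd163 at 15 weeks lay at 9.59, 10.07, 9.89 and 9.71 in grouped and 9.04, 9.41, 8.64 and 9.33 in isolated arrays (difference -0.71, SE 0.16, limma adjusted p = 0.256). Ogn lay at 11.09, 11.3, 11.31 and 11.32 in grouped and 10.66, 10.75, 10.49 and 10.91 in isolated arrays (-0.55, SE 0.09, limma adjusted p = 0.0975). Pi16 differed by -0.54 (limma adjusted p = 0.156) and Mrc1 by -0.4 (limma adjusted p = 0.342). In each of these 4 genes isolated replicate 3 was the lowest array and no isolated array reached a grouped one. Lyve1 (-0.69) overlapped, since isolated replicate 2 at 9.36 passed grouped replicate 2 at 9.35. Of the 15 genes with the largest increases among those above the median level, 15 were lower in isolated mice at 15 weeks and 7 had no overlap. Among collagen genes Col1a1 differed by -0.03 (SE 0.23) and Loxl1 by -0.12 at 15 weeks, with overlap.

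**Figure D5:**
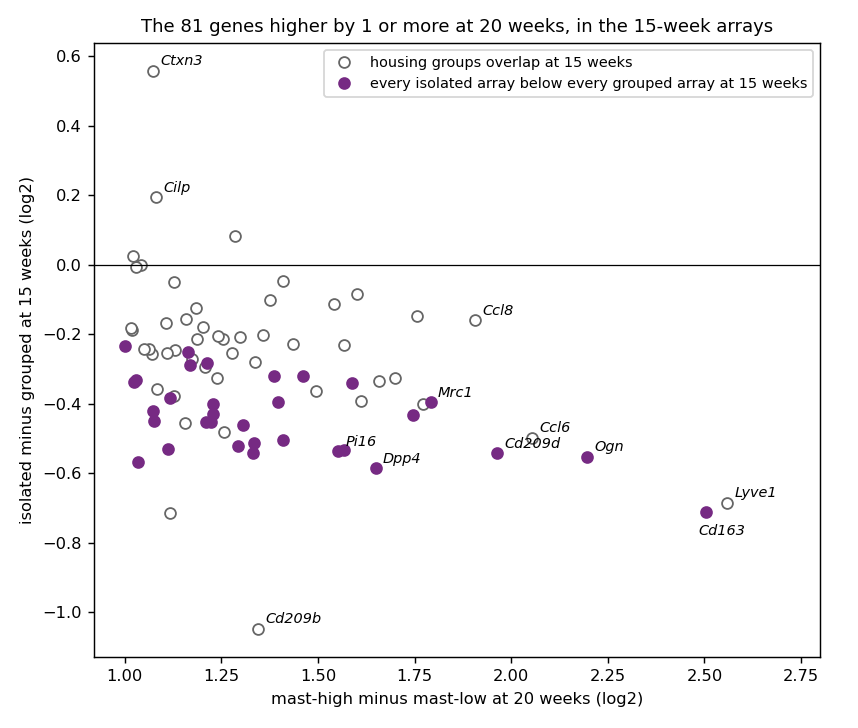
Each point is 1 of the 81 genes that were higher by at least 1 on mast-high arrays at 20 weeks. The horizontal axis gives that difference and the vertical axis the isolated minus grouped difference on the 8 separate arrays at 15 weeks, both on the log2 scale. Filled points mark the 32 genes with no overlap between housing groups at 15 weeks, and 77 of the 81 points lie below 0.

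The arrays of 1 housing differed little, the mean of the 3 proteases spanning 10.25 to 10.39 on grouped and 9.54 to 9.74 on isolated arrays. A limma fit of every gene on that mean, with housing as a term, called 0 of 18190 genes (0%), and 303 had an unadjusted p under 0.05, 159 with a positive and 144 with a negative slope. The slope was positive in 71 of the 81 genes, against 42.4% of all genes. The smallest p-values with a positive slope were those of Colec12, Ugt2a3, Gas7, H3c7 and Fbxo2, and with a negative one those of Oosp1, Mid1, Lrrc66, Fam20a and Mboat1. Of these 10, only Gas7, a cytoskeletal adaptor, also belonged to the 81, with a slope of 2.46 log2 units per unit of the protease mean (SE 0.6, limma adjusted p = 0.969) and a difference of 1.57 at 20 weeks. Colec12, a scavenger receptor of stroma, differed by 0.75 at 20 weeks with overlap.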

How the data were processed

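Levels were those of Affymetrix 3' expression arrays, 16 in all. The deposited log2 values per probe set were made by the authors with RMA in affy, per the submitters' processing notes, and no version is given in the sources used here. Array medians were 8.09 to 8.11 at 15 weeks and 8.31 to 8.34 at 20 weeks, so no level was set across ages. Of 45101 probe sets 34945 had 1 gene symbol, 932 several and 9211 none listed (array controls left out), and of 18193 genes 9010 had more than 1 probe set, of which the one of highest mean was used. Signal over background was not given, and the number of arrays limits precision.

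A gene was counted when all 4 mast-high arrays lay above, or below, all 4 mast-low arrays with a mean difference of at least 1. Tests used limma 3.58.1 in R 4.3.3 (lmFit, then eBayes with trend), all genes sharing 1 Benjamini-Hochberg adjustment at a threshold of 0.05. They were also run on simulated data, with no outcome given here. The slopes planted there were steeper than that of Gas7, so smaller slopes were not covered. The split, the genes and the 39 lists were chosen with earlier results of these data known, and the Cd209 and Ms4a families after their values were seen. Named genes were the 15 largest increases and decreases above the median level, mast cell markers, up to 4 members of each list with the largest difference and 5 genes per direction of the 15-week slope. Others are said to be picked later. The labels do not say whether replicate numbers pair arrays, and not every same-number correlation was clearly positive (-0.1 to 0.36 at 15 weeks, -0.16 to 0.49 at 20 weeks), so the tests used no pairing; p-values measure only the spread between arrays, which may be technical. Alternatives were 2 normalizations, a filter, another probe set, other splits, housing and each array left out.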

Additional observations from a re-analysis of the deposited data

Results flagged for a closer look

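In 25 of 296 groups of 4 arrays 1 array stood far from the other 3, and chance gives about 1 in 20. Among list means at 20 weeks, isolated replicate 1 was low for proteoglycans (10.2, others 10.76 to 10.85) and complement (9.68, others 10.39 to 10.5), which is the mast-low array among isolated mice. Grouped replicate 3, the mast-high array among grouped mice, was high for complement (10.69, others 9.84 to 9.97) and the Cd209 family (9.92, others 8.34 to 8.58) and low for cholesterol synthesis (9.996, others 10.26 to 10.3). Isolated replicate 3 was high for T and NK cells (8.34, others 7.91 to 7.94) and for skin and hair (8.24, others 7.55 to 7.67), and isolated replicate 4 for TGF-beta signalling (10.45, others 10.33 to 10.35).

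Among genes at 20 weeks grouped replicate 3 was high for Cd209d (11.03) and low for Fgfr3 (11.27, others 11.77 to 11.82), Cyp51 (9.05, others 9.72 to 9.79), Map3k21 (9.96, others 10.24 to 10.3) and Ptprf (12.31, others 12.75 to 12.81). Isolated replicate 1 was high for Cyp51 (10.11, others 9.33 to 9.45).

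At 15 weeks grouped replicate 1 was high for T and NK cells (8.47, others 7.91 to 7.98), B cells (9.58, others 8.39 to 8.47) and lymphatic markers (8.58, others 8.21 to 8.26) and low for Ogn (11.09, others 11.3 to 11.32). Grouped replicate 3 was high for fatty acid oxidation (12.54) and low for Ccl8 (11.29, others 12.31 to 12.43), and grouped replicate 4 was high for glucocorticoid response (10.89) and Cbr2 (10.29). Isolated replicate 3 was low for type 2 immunity (7.61) and Gas7 (9.0, others 9.51 to 9.61), and isolated replicate 4 was high for p53 targets (9.65).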

How the results depend on the processing

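The count of 81 higher genes was 69 to 99 under quantile or cyclic loess normalization, a filter on low levels and another choice of probe set, and 81 with each protease alone. It was 300 at a difference of 0.5, 98 with housing as a term, 112 from grouped and 243 from isolated arrays alone, and 73 to 97 with 1 array left out. The count of 0 lower genes was 5 at a difference of 0.5, 1 with housing as a term, 5 from grouped and 16 from isolated arrays alone, and 0 to 2 with 1 array left out. Each within-housing count sets 1 array against 3. The slope at 15 weeks called 0 genes under every alternative, at 303 with an unadjusted p under 0.05. Housing at 15 weeks called 8 genes, 6 to 8 under other processing, and 0 to 31 with 1 array left out (0 without isolated replicate 1 or 2, 1 without grouped replicate 2, 2 without isolated replicate 3, 16 without grouped replicate 1 and 31 without grouped replicate 3). Housing at 20 weeks called 2, 2 or 3 under other processing, and 0 to 136 with 1 array left out (136 without isolated replicate 4, 0 without grouped replicate 2 or 4, 1 without grouped replicate 3 or isolated replicate 2 or 3). With the replicate number as a block (replicate block) the counts were 17 at 15 weeks and 3 at 20 weeks, and the numbers share no stated origin. Of the arrays, 2 of 4 numbers at 20 weeks and 3 of 4 at 15 weeks correlated best with their own number. The cause of these moves was not tested. Of 585 list values 36 moved, by at least the SD within the sets, and of 1472 gene values 55 did. A change of sign was counted as reversed only where the sets lay apart, and 0 were. For genes lying apart, leaving out arrays or taking 1 housing cannot change the sign, so this count shows little. Some lists with overlap did change sign with housing as a term. The median of fatty acid and triglyceride synthesis went from -0.16 to 0.18 and that of endothelial markers from -0.04 to 0.21. Genes near the lower quartile of an array have only a bounded difference.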
